A study of Homo sapiens with 18 samples.

Results

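The comparison described here sets 2 sgERH_IFNγ libraries against 3 sgAAVS1_IFNγ libraries, 5 of the 18 libraries of the series. The cells were RKO-iCas9, a derivative of the human colon carcinoma line RKO that makes Cas9 when doxycycline (dox) is added. It goes back to a single cell, so every group shares 1 clonal background, and cells that carried the guide were sorted in bulk. One guide RNA targeted ERH and the other the safe-harbour site AAVS1 as the control. All 5 cultures had 100 ng/mL dox for 5 days and then 25 ng/mL IFNγ for 4 h. For each guide, the same dox treatment was followed by no cytokine (NT) or by 10 ng/mL IL-1β for 4 h, and those libraries (2 sgAAVS1_NT, 3 sgERH_NT, 2 sgAAVS1_IL-1β and 3 sgERH_IL-1β) are used only to show where the effect of the ERH guide under IFNγ differed. The members are those named by group in the labels. Replicate 2 of sgERH_IFNγ was left out, as the study did.

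IFNγ binds a receptor of 2 chains, IFNGR1 and IFNGR2, which activates the kinases JAK1 and JAK2. The signal switches on IRF1 and other transcription factors through GAS elements in promoters, and these in turn act through ISRE elements on the antigen presentation and antiviral genes. ERH is a short, highly conserved nuclear protein found with factors of transcription and RNA processing.

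QuantSeq reads the 3′ end of polyadenylated transcripts, so a count reports how much 3′ end was present and says nothing of splicing. The 5 libraries held 4987127 to 5652257 reads, and 11940 to 12580 genes had at least 10 reads. Nuclear copies of mitochondrial sequence took 6.81% to 7.08% of reads in sgAAVS1_IFNγ and 8.77% to 8.94% in sgERH_IFNγ, and ribosomal protein genes took 12.9% to 13.3% and 11.7% to 12.1%. Their part in the results was not tested. In bulk RNA, fewer cells that express a gene and less RNA in each cell cannot be told apart. Of 15 colon epithelial markers, 8 had no read in the 5 libraries, among them CDH1 and CDX1. Of 17 leukocyte markers 13 had no read, and of 15 fibroblast and endothelial markers 10 had none. The summed leukocyte list (396 to 420 CPM in sgAAVS1_IFNγ, 414 to 461 in sgERH_IFNγ) was almost all CD68. Levels below are TMM-scaled CPM (reads of a gene relative to the library size), errors of fold changes are standard errors (SE), and a gene was called where edgeR's adjusted p was at most 0.05 and the log2 fold change at least 1 in size.

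ERH itself stood at 601, 562 and 606 CPM in the sgAAVS1_IFNγ libraries and at 286 and 313 CPM in the sgERH_IFNγ libraries. It differed by −0.98 ± 0.12 on the log2 scale (SE; edgeR adjusted p = 9.65e-07) and so missed the fold threshold of 1. With replicate 2 put back the value was −1.28 and was called. Because only 3′ ends were read, this level is no measure of how many cells were edited and no check of the labels. The left-out sgERH_IFNγ replicate 2 held 126 CPM of ERH before scaling, against 306 and 329 in replicates 1 and 3.

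Some promoters of interferon-list genes that fell hold the elements named above, and others do not. For the 4 lowest by fold change among those with a match in this stretch and at most 20% multimapping reads, the last 150 bases before the RefSeq start (GRCh38.p14, read in the direction of the gene) are printed with matches to GAS (TTCNNNGAA) and ISRE (GAAA, any 2 bases, then GAAA), on either strand, in capitals. IRF1 lies at chr5:132490774-132490923 on the − strand, ICAM1 at chr19:10270970-10271119 on the + strand, GBP3 at chr1:89022867-89023016 on the − strand and IFIT5 at chr10:89414418-89414567 on the + strand.
IRF1: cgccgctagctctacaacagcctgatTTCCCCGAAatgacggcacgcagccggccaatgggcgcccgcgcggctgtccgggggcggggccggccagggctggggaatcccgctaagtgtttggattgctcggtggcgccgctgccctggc
ICAM1: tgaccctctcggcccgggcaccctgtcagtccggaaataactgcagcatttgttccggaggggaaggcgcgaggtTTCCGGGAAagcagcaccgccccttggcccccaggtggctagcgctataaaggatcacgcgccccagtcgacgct
GBP3: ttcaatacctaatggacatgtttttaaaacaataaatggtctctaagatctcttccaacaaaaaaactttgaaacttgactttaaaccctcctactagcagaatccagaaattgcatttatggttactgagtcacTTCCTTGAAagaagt
IFIT5: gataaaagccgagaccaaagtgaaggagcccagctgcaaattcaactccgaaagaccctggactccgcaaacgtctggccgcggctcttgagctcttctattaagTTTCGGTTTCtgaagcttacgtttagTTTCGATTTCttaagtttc
Both IRF1 and ICAM1 hold 1 GAS match, 124 and 75 bases before the start, GBP3 holds 1 at 15 bases, and IFIT5 holds 2 ISRE matches at 45 and 19 bases. Of the 22 interferon-list genes that fell, 19 had a promoter in the table, and 11 of these (57.9%) held a GAS or ISRE match anywhere from 250 bases before to 50 after the start. The share was 55.0% (44 of 80) for all tested members of these lists and 11.1% for all 27305 promoters. A match is a description of letters and not of binding.

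IRF1, the transcription factor at the head of the secondary response (chromosome 5, 132440440 to 132508719, GENCODE 44), stood at 897, 773 and 805 CPM in sgAAVS1_IFNγ and at 118 and 118 CPM in sgERH_IFNγ. The groups were far apart, by −2.81 ± 0.12 on the log2 scale (SE, edgeR adjusted p = 1.78e-15). NLRC5, the transactivator of class I genes, fell from 59.8, 68.9 and 67.2 CPM to 14.4 and 22.0 (−1.84 ± 0.21, edgeR adjusted p = 3.72e-07). BATF2, an AP-1 family factor, stood at 6.86, 9.14 and 7.99 CPM against 1.29 and 0.908. These 3 were called lower, and no other of the 14 tested factors on the list was called.

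Over all genes tested under IFNγ, 700 of 13370 rose (5.24%) and 317 fell (2.37%), 7.61% in all, with a median log2 fold change of 0.04. More than 20% of reads were multimapping in 109 of the genes that rose and 30 of those that fell, whose values are less certain. Against this, the IFNγ response factors had 3 of 14 tested members lower and none higher (median −0.65). The IFNγ effector genes had 14 of 29 lower and none higher (median −1.08). Of 47 effector genes listed, only these 29 passed the filter on low counts. A gene could pass it through sgAAVS1_IFNγ alone, which favours lower values in such a share and median. Of 12 signalling components, 0 were called by edgeR or DESeq2 (median −0.05), with 3 at an unadjusted p under 0.05. JAK1 read 104, 95.2 and 104 CPM against 87.3 and 89.9 (−0.19 ± 0.12), JAK2 36.4, 51.3 and 47.5 against 44.02 and 44.5 (−0.03 ± 0.17), and IFNGR1 7.90, 7.09 and 4.30 against 8.32 and 10.5 (0.55 ± 0.38). None of these 3 passed the test, and IFNGR1, at 4.30 to 10.5 CPM, had the widest error. For JAK2 the guide effect was −0.54 ± 0.17 without cytokine (edgeR adjusted p = 0.0206, under the fold threshold) and 0.24 ± 0.17 with IL-1β. The study reports less JAK2 mRNA at baseline after ERH targeting, in its 3′ end data and by RT-qPCR. It also reports that JAK2 protein was almost lost with and without IFNγ, and that nuclear JAK2 mRNA retained introns. A 3′ end count measures neither. IFNGR2 had 99.0% multimapping reads and its value is uncertain.

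Effector genes that fell covered adhesion, immune signalling, ADP-ribosylation and ubiquitin transfer. ICAM1, the adhesion molecule (chromosome 19, 10271093 to 10286615), read 282, 283 and 267 CPM against 81.4 and 90.8 (−1.69 ± 0.13). SECTM1, a secreted and membrane protein, read 101, 105 and 103 CPM against 19.98 and 18.7 (−2.41 ± 0.19). It was also lower without cytokine (−0.92) and with IL-1β (−0.98), both under the fold threshold. DTX3L, a ubiquitin ligase that pairs with PARP9, read 119, 114 and 116 CPM against 32.4 and 31.8 (−1.86 ± 0.16). CD274, which encodes PD-L1, read 620, 664 and 665 CPM against 276 and 288 (−1.20 ± 0.10). It was also lower without cytokine (−1.12) and with IL-1β (−1.10), and was called lower there too. The neighbours PARP9 and PARP14 fell as well (−1.55 and −1.20), and so did the GTPase GBP3, the ubiquitin-conjugating enzyme UBE2L6 and the tryptophan tRNA synthetase WARS1 (−1.45, −1.08 and −1.01). The call of APOL6 (−1.67) was lost without sgERH_IFNγ replicate 1, without replicate 3 and without sgAAVS1_IFNγ replicate 3.

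Antigen presentation and antiviral lists had fewer called members. Of 21 class I genes, 3 fell (median −0.22). They were NLRC5, the proteasome subunit PSMB9, which is uncertain since every read also mapped elsewhere, and the tapasin-like TAPBPL (−1.05), which lost its call without each of the 3 control libraries and without sgERH_IFNγ replicate 1. TAP1 (−0.84) and B2M (−0.43) were lower without passing the fold threshold, and both had nearly all reads multimapping. Of 26 type I interferon and antiviral genes, 3 fell (IFIT5, PLSCR1 and DDX60L) and 3 rose (median −0.39). IFI6, an interferon-inducible mitochondrial protein, rose from 5.19, 6.35 and 8.81 CPM to 34.4 and 33.1 (2.31 ± 0.22). It was the strongest rise on that list, with SAMD9 and HERC6 after it (1.71 and 1.37). All 3 were also called higher without cytokine and with IL-1β, IFI6 by 2.76 and 2.04 and SAMD9 by 1.97 and 1.94.

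**Figure D1:**
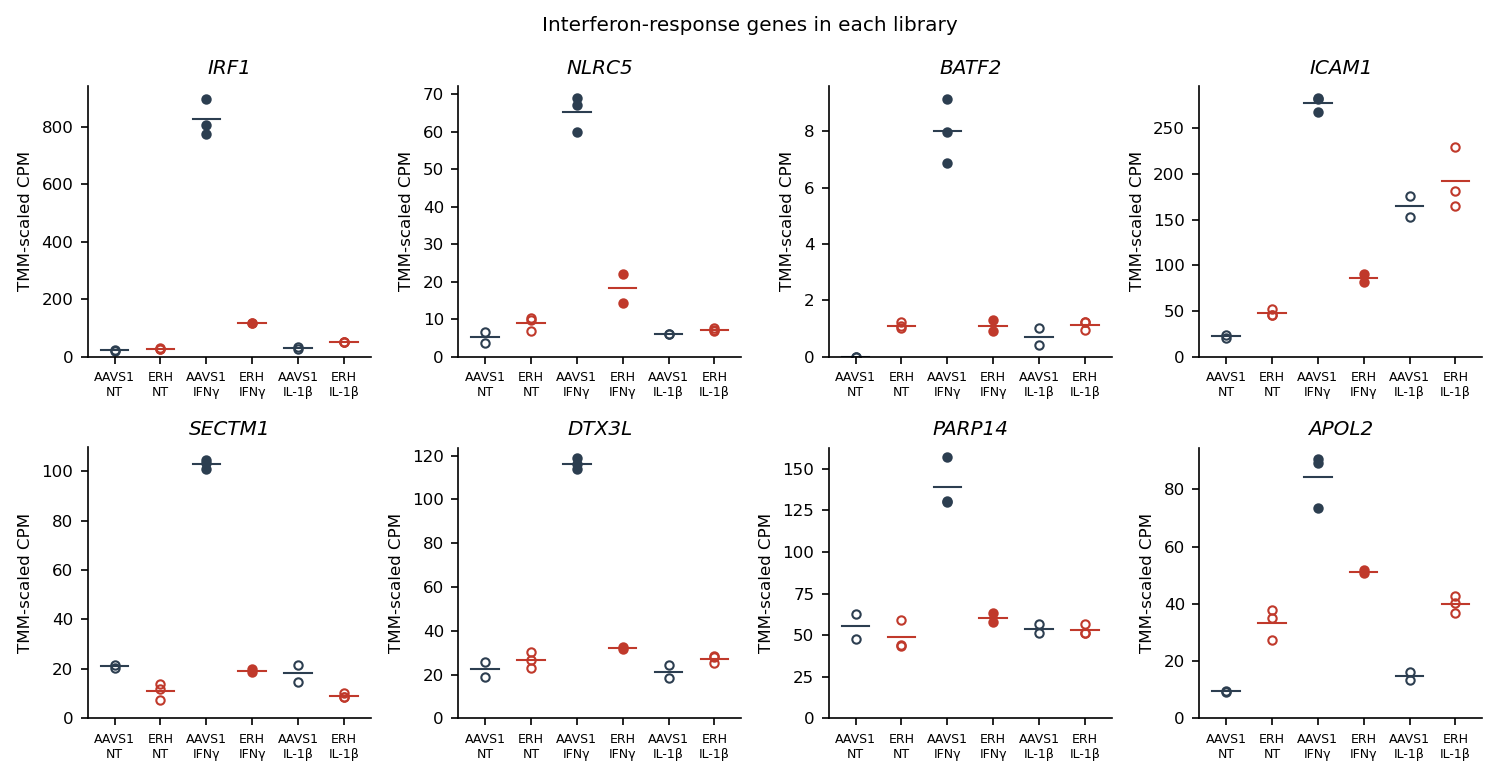
TMM-scaled CPM in each library (vertical axis, linear from 0) of 8 interferon-response genes for both guides in 3 treatments. Points are the libraries used (filled for IFNγ) and bars are means. For all 8 genes the mean of the sgERH_IFNγ libraries used lies below the sgAAVS1_IFNγ mean. The left-out sgERH_IFNγ replicate 2 is not drawn.

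All 5 cell-cycle lists had more members lower than higher. Of 47 genes of the spindle, chromosome segregation and cytokinesis, 21 fell and none rose (median −0.94), of 36 of the spindle checkpoint and kinetochore 8 fell (median −0.81), of 44 cyclins, CDKs and regulators of mitotic entry and exit 9 fell (median −0.63), of 63 replication genes 17 fell (median −0.78) and of 52 repair and checkpoint genes 9 fell and 1, LIG4, rose (median −0.33). BUB1B, a checkpoint kinase, read 84.4, 63.1 and 75.8 CPM against 24.2 and 21.6 (−1.70 ± 0.18). MCM3, a subunit of the replicative helicase, read 46.3, 72.0 and 55.5 CPM against 16.3 and 19.1 (−1.71 ± 0.23). The condensin subunit SMC4 read 742, 840 and 778 CPM against 247 and 280 (−1.58 ± 0.13). MKI67, the proliferation antigen, fell from 136, 150 and 142 CPM to 50.7 and 55.9 (−1.42 ± 0.13). EXO1, a repair exonuclease, read 32.6, 20.7 and 27.9 CPM against 7.40 and 6.18 (−1.99 ± 0.29), and TOP2A, the mitotic topoisomerase, 46.8, 53.9 and 48.9 CPM against 17.0 and 17.3. The calls of CENPI and NEIL3 were lost when either sgERH_IFNγ library was left out, and that of NEIL3 also without sgAAVS1_IFNγ replicate 1.

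The promoters of cell-cycle genes that fell hold other letters. Of 53 with a promoter in the table, 26 held a CHR element (TTTGAA), or 49.1% against 15.4% of all promoters, 34 held a CCAAT box (64.2% against 35.7%) and 19 held both (35.8% against 6.08%). For all tested members of the cell-cycle lists the shares were 31.7%, 59.9% and 23.8%. The last 150 bases before the start of 3 of them, read in the direction of the gene with CHR and CCAAT matches on either strand in capitals, are shown because each holds both elements and they are the lowest by fold change to do so among those with a promoter in the table and at most 20% multimapping reads. In MKI67 a CHR and a CCAAT match overlap.
DLGAP5: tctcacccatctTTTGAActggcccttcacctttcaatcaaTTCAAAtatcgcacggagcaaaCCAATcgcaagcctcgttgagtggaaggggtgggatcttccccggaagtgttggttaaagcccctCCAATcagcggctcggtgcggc
ASF1B: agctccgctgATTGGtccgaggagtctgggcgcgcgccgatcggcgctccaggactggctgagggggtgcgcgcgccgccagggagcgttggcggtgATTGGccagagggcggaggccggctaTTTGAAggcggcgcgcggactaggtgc
MKI67: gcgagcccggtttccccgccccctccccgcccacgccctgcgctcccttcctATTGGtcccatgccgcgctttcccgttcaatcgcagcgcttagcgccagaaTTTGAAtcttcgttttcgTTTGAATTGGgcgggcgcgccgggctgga
These lie at chr14:55191586-55191735, chr19:14136590-14136739 and chr10:128126424-128126573, all on the − strand. DLGAP5, a spindle protein, stood at 16.2, 14.9 and 13.5 CPM in sgAAVS1_IFNγ and at 2.03 and 5.81 in sgERH_IFNγ. ASF1B, a histone chaperone, stood at 123, 106 and 100 CPM against 37.2 and 33.8.

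The p53, ATF4, NF-κB and immediate early lists had more members higher than lower. Of 33 p53 targets 8 rose and none fell (median 0.64), and of 24 ATF4 genes 7 rose (median 0.63). GADD45A, which responds to DNA damage, read 62.5, 68.1 and 59.6 CPM against 183 and 193 (1.57 ± 0.12), and the sestrin SESN2, on both lists, read 77.1, 70.7 and 76.8 CPM against 200 and 197 (1.41 ± 0.12). DDIT3, the stress factor CHOP, read 21.2, 20.9 and 19.0 CPM against 46.2 and 47.8 (1.20 ± 0.15). CDKN1A, the p21 inhibitor, did not pass the test (0.05 ± 0.11), and MDM2 (0.89 ± 0.10) stayed under the fold threshold. Of 33 NF-κB response genes 8 rose and none fell (median 0.89), led by the chemokine CXCL1 at low counts and by the cytokine IL11, from 24.9, 25.8 and 25.8 CPM to 130 and 127 (2.33 ± 0.13). The left-out sgERH_IFNγ replicate 2 held 0.699 CPM of CXCL1, 0.233 of CXCL3 and 2.33 of BIRC3 before scaling, no higher than the highest control library, and with it put back CXCL3, BIRC3 and NFKBIA lost the call. Of 27 immediate early genes 5 rose (median 0.30), among them NR4A2 from 1.25, 1.12 and 1.23 CPM to 15.9 and 14.0, and JUND from 71.3, 63.8 and 63.1 CPM to 223 and 198.

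The anti-apoptotic BCL2A1, which lay in the lowest 12 by fold, read 503, 560 and 559 CPM against 106 and 112 (−2.31 ± 0.14). Also among these 12 were HAPLN3, SDC3, EEFSEC, EXO1, CYP4V2, CD99L2, DLGAP5 and ITGA2, besides BATF2, IRF1 and SECTM1. Without sgERH_IFNγ replicate 3, HAPLN3 and CYP4V2 lost the call, and EEFSEC lost it without replicate 1. The 12 highest were SNORD46, RPPH1, PTPN22, MYCT1, MMP3, CELSR3, NR4A2, DBP, YPEL2, AC005332.5, AC078993.1 and RNU2-46P, all under 2 CPM in every control library. MMP3, a secreted metalloproteinase, read 0.416, 0.747 and 1.43 CPM against 11.1 and 16.3. DBP, a clock-controlled transcription factor, read 0.623, 1.68 and 0.614 against 9.80 and 12.9. SNORD46, RPPH1 and RNU2-46P are annotated as a snoRNA, a ribozyme and an snRNA, and whether their reads came from the mature RNA was not tested. Before scaling, the left-out sgERH_IFNγ replicate 2 held 0.932 CPM of MYCT1, within the control range (0.392 to 1.06 CPM). It held 2.10 CPM of NR4A2, against 17.0 and 14.7 in replicates 1 and 3. The rest of the 12 were above the control libraries in it.

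Over all genes tested 5.24% rose and 2.37% fell, so more higher than lower calls is the general pattern. Of 24 small nucleolar RNA host genes 4 rose and none fell, and SNHG7 went from 112, 106 and 107 CPM to 518 and 562 (2.32 ± 0.17). The left-out sgERH_IFNγ replicate 2 held 68.7 CPM of SNHG7 before scaling, below the control libraries. Of 144 antisense genes 18 rose and 1 fell, and of 77 LINC genes 13 rose and 3 fell. No source used here says that reads were counted by strand, so antisense values are uncertain. Of 367 numbered zinc finger genes 22 rose and 2 fell, and the share that rose was near that over all genes.

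Few factors of RNA processing passed the fold threshold. By edgeR and by DESeq2, 0 of 21 exon junction complex genes and 0 of 46 SR and hnRNP genes were called (medians 0.09 and −0.33), with 11 and 25 at an unadjusted p under 0.05, against 4884 of 13370 over all genes. Of 26 export factors, THOC2 alone fell (−1.17 ± 0.14), a call lost without sgERH_IFNγ replicate 3. The study searched for retained introns across all transcripts and measured 6 genes further by RT-qPCR. Of these 6, HSPA4L, HEATR1 and RAD50 fell (−1.53, −1.16 and −1.01). JAK2, PIK3C2A and TOP2B did not pass both thresholds (−0.03, −0.60 and −0.98). The call of RAD50 was lost without sgAAVS1_IFNγ replicate 2 and without sgERH_IFNγ replicate 1. Against 5.24% higher and 2.37% lower over all genes, the remaining lists had few calls, and counts this small show nothing particular to a list. Of 22 heat shock genes 1 fell, of 31 sterol and fatty acid genes 3 rose and 2 fell, and of 24 glycolysis genes 1 rose and 1 fell. Of 40 histone genes 4 rose and 3 fell, and of 32 apoptosis regulators 1 rose and 3 fell. Most glycolysis genes were lower by less than the fold threshold, with 21 of 24 below 0 (median −0.66). The glycolysis median was −0.75 without cytokine and −0.58 with IL-1β. By edgeR and DESeq2, 0 of 24 housekeeping genes and 0 of 82 ribosomal protein genes were called (medians −0.32 and −0.26), with 15 and 45 at an unadjusted p under 0.05. GAPDH (−0.74) and ACTB (−0.68) were lower with adjusted p-values past the threshold by edgeR (6.69e-05 and 9.89e-06). Of 35 germline genes 2 were tested, with 0 called by edgeR or DESeq2 and 0 at an unadjusted p under 0.05.

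The same guide contrast in other treatments shares no library with this one. Without cytokine, 5.95% of genes were called higher and 2.30% lower, and with IL-1β 5.68% and 2.80%. The cell-cycle lists together had 64 of 242 genes lower with IFNγ, 70 without cytokine and 82 with IL-1β. The 6 stress lists (p53, ATF4, heat shock, immediate early, NF-κB and apoptosis) had 26 of 164 genes higher with IFNγ. Without cytokine they had 34 higher and with IL-1β 26. The interferon lists differed. Of their 101 tested genes, 22 were lower and 3 higher under IFNγ. Without cytokine 3 were lower and 16 higher, and with IL-1β 1 was lower and 10 higher. The filter limit given for the effector genes holds for these lists too, and a gene near 0 in another treatment's control can hardly be called lower there. These counts, and the shares of interferon genes below, are thus partly set by the filter. BATF2 and APOL6, with 0 reads in sgAAVS1_NT, are among the 16. Of the 317 genes that fell under IFNγ, 107 (33.8%) were also called lower in both other treatments and 101 (31.9%) in neither. Of these 101, 21 were on the interferon lists, against 1 of the 107. The median log2 fold change of the 101 was −0.56 without cytokine and −0.52 with IL-1β, and 67 of them were below 0 in both. Of the 700 that rose, 276 (39.4%) were called higher in all 3 treatments and 202 (28.9%) under IFNγ alone. The median log2 fold change of those 202 was 0.68 without cytokine and 0.63 with IL-1β, so a missing call in the other treatments is not a missing difference.

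**Figure D2:**
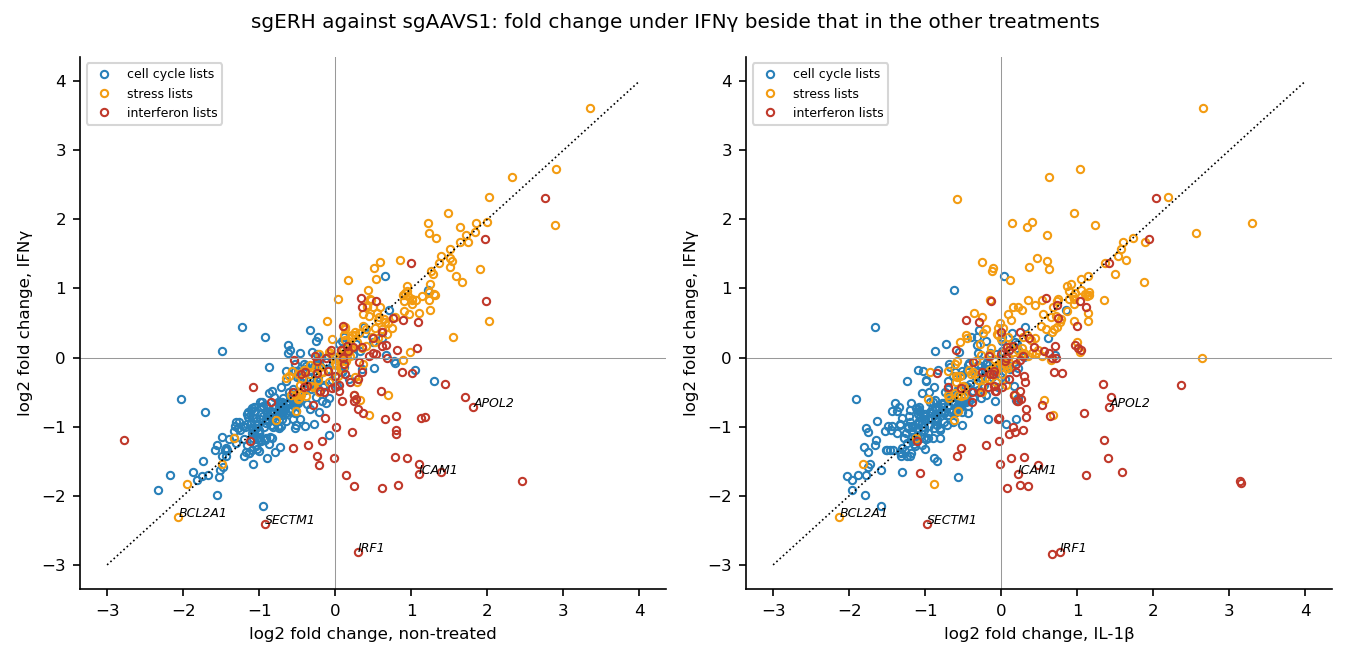
Log2 fold change of sgERH against sgAAVS1 under IFNγ (vertical) and without cytokine or with IL-1β (horizontal) for members of the cell cycle, stress and interferon lists; genes with 0 reads in that treatment's control are left out. Most cell cycle members lie near the dotted line of equal change, and IRF1 lies at −2.81 under IFNγ, 0.30 without cytokine and 0.77 with IL-1β.

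The difference itself was tested in the same fit. The guide effect under IFNγ minus that without cytokine was called lower for 25 genes (0.187% of those tested) and higher for 2. Minus that under IL-1β it was called lower for 22 genes (0.165%) and higher for 1. That total of 23 was 4 with sgERH_IFNγ replicate 2 put back, 15 without multimapping reads, 13 and 12 without sgERH_IFNγ replicates 1 and 3, 11 and 14 without sgAAVS1_IL-1β replicates 1 and 2, and 62 without sgERH_IL-1β replicate 3. The total of 27 against no cytokine was 7 with replicate 2 put back, 16 and 17 without sgERH_IFNγ replicates 1 and 3, and 17 without sgAAVS1_NT replicate 2. WARS and WARS1, the older and newer symbols of 1 gene, are separate entries in the files and each counts in both tests. Of the genes lower against no cytokine, 3 had 0 reads in sgAAVS1_NT, and 1 of these, AC083837.1, read −0.03 under IFNγ itself. Both tests use the same 5 IFNγ libraries. IRF1 differed by −3.11 ± 0.18 from no cytokine and by −3.58 ± 0.17 from IL-1β, on the log2 scale (edgeR adjusted p = 3.03e-12 and 4.27e-14). DTX3L differed by −2.10 ± 0.23 and −2.21 ± 0.23, and NLRC5 by −2.66 ± 0.35 and −2.08 ± 0.35.

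ICAM1 was high with either cytokine in control cells. It stood at 22.4 CPM in sgAAVS1_NT, 278 in sgAAVS1_IFNγ and 165 in sgAAVS1_IL-1β, and at 47.9, 86.1 and 192 in the sgERH groups. The guide effect was 1.10 ± 0.15 without cytokine, −1.69 ± 0.13 with IFNγ and 0.22 ± 0.13 with IL-1β, and the difference between the cytokines was −1.91 ± 0.18 (edgeR adjusted p = 2.12e-07). APOL2, an apolipoprotein L, was higher in sgERH without cytokine (33.4 CPM against 9.45 in sgAAVS1) and with IL-1β (39.8 against 14.8 CPM), and stood at 51.2 against 84.4 CPM with IFNγ (−0.72 ± 0.15, under the fold threshold). Before scaling, the left-out sgERH_IFNγ replicate 2 held 74.3 CPM of APOL2, within the range of the sgAAVS1_IFNγ libraries (71.0 to 85.8 CPM). No fitted difference from NT is given for BATF2 and APOL6, whose NT control libraries held 0 reads.

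NFKBIA, the NF-κB inhibitor, was the 1 gene called with a higher guide effect under IFNγ than under IL-1β. It stood at 98.4 CPM in sgERH against 41.3 in sgAAVS1 with IFNγ and at 221 against 241 CPM with IL-1β, a difference of 1.38 ± 0.27 (edgeR adjusted p = 0.0492). The call was lost without each of the 5 IFNγ libraries and each sgAAVS1_IL-1β library. The left-out sgERH_IFNγ replicate 2 held 4.66 CPM of NFKBIA before scaling, and with it the rise under IFNγ was not called either (0.71, adjusted p = 0.498).

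**Figure D3:**
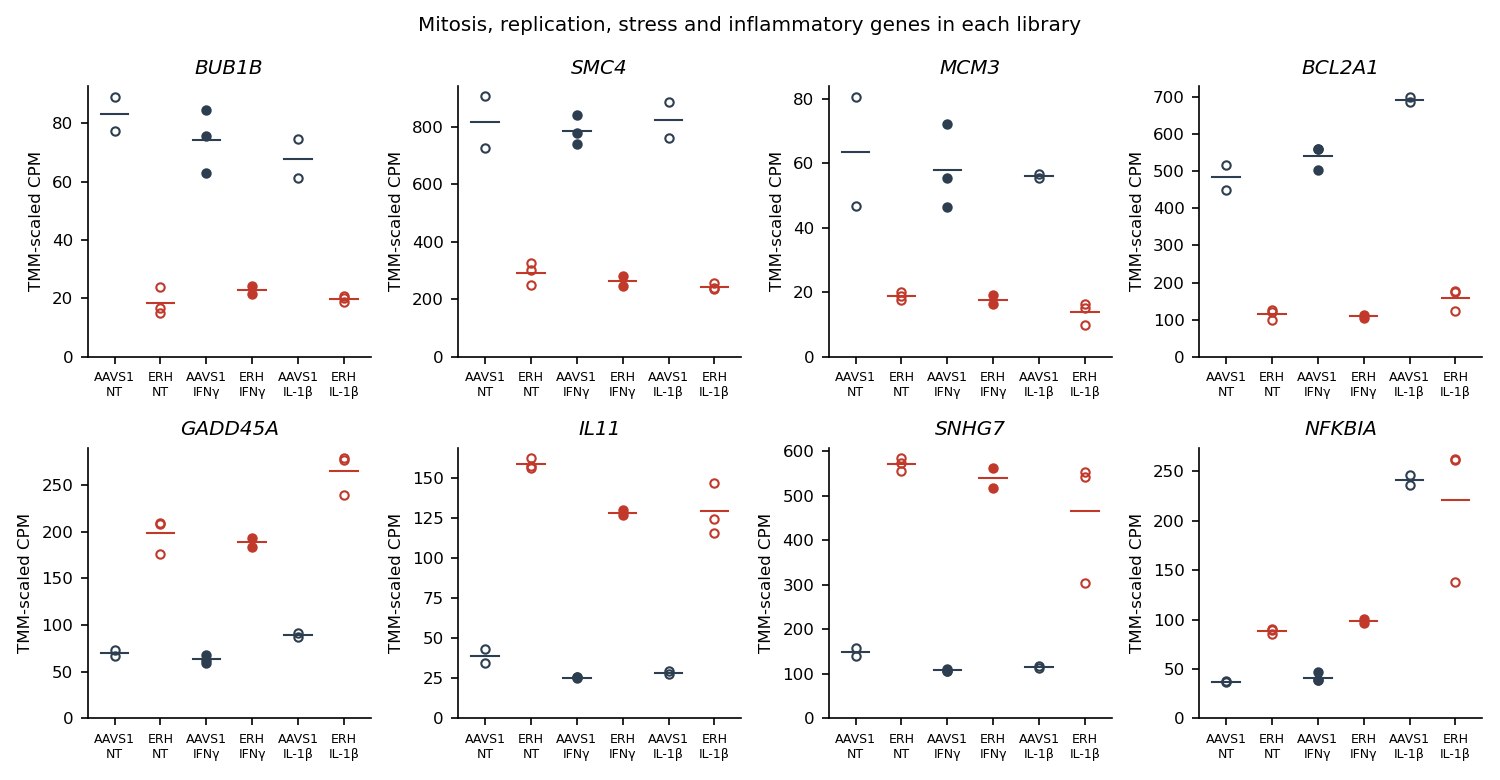
TMM-scaled CPM in each library (vertical axis, linear from 0) of 8 genes of mitosis, replication, stress and inflammation, drawn as for the interferon genes. BUB1B, SMC4, MCM3 and BCL2A1 are lower and GADD45A, IL11 and SNHG7 higher in sgERH in all 3 treatments, and NFKBIA differs between guides without cytokine and with IFNγ.

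With replicate 2 of sgERH_IFNγ put back, IRF1 kept its call, in both tests of a difference as well. That library read 105 CPM of IRF1 before scaling, close to the other sgERH_IFNγ libraries (124 to 126 CPM). The number of interferon-list genes called lower was then 18. RAD50, CD99L2, PSMB9, TAPBPL and THOC2 also lost the call with it. The labels call the replicates biological without saying whether each was a culture of its own, and p-values cover only the spread among these libraries, some of which may be technical.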

How the data were processed

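Transcript 3′ ends were measured by QuantSeq in RKO-iCas9 cells. Trimming by the authors used Trim Galore 0.6.2 with FastQC 0.11.8, as the submitters' processing notes list. SlamDunk then aligned the reads to GRCh38 and tallied them over 3′ end windows, merged by gene symbol. The files as deposited hold raw whole-number counts per gene and, beside them, counts of multimapping reads.

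Tests of the counts used edgeR 4.0.16 under R 4.3.3 (robust quasi-likelihood F test, TMM, filterByExpr), in 1 model of 6 groups over the 15 libraries the study kept and 13370 genes (biological coefficient of variation 12.6%). p-values were adjusted by Benjamini-Hochberg over all genes. Contrasts were sgERH against sgAAVS1 under IFNγ, NT and IL-1β, and the differences between them. The script was tested on simulated data. No molecular identifiers are named in the sources used here, so counts of reads are not counts of molecules.

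The members, gene lists and tests were chosen with earlier results of these data known. Named genes were a fixed set, the 12 highest and 12 lowest called fold changes with at least 5 CPM in 1 group, at most 20% multimapping reads and no overlap between groups, up to 4 called members of each list, and up to 6 genes in each direction of each difference test. 1 gene of this set is not reported here and was left out of the lists. Other genes are list members that were chosen after their values were seen. Promoter sequences came from RefSeq (GRCh38.p14, first entry per symbol), and gene positions from GENCODE 44 (GRCh38). Alternatives were DESeq2 1.42.0, DESeq2 size factors, no filter, only the groups compared, all 18 libraries, 16 libraries, a replicate block, no multimapping reads, adjusted p alone and leaving out each library.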

Additional observations from a re-analysis of the deposited data

Results flagged for a closer look

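The guide effect under IFNγ differed from that without cytokine for 27 genes and from that under IL-1β for 23 genes, each by a test of the difference itself. Against no cytokine, the log2 difference was −3.11 for IRF1, −2.79 for ICAM1, −2.66 for NLRC5 and −2.64 for PARP9. TNKS1BP1 and MED25 differed in the other direction, by 1.02 and 1.01. PARP9, TNKS1BP1 and MED25 lost the call when single libraries were left out, among them sgERH_IFNγ replicate 1. Against IL-1β, the log2 difference was −3.58 for IRF1, −2.21 for DTX3L, −2.14 for APOL2, −2.08 for NLRC5 and −1.91 for ICAM1, and 1.38 for NFKBIA. NLRC5 lost that call without sgERH_IFNγ replicate 1 and without sgAAVS1_IL-1β replicate 1. Groups held 2 or 3 libraries, too few to test single samples as outliers.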

How the results depend on the processing

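Under IFNγ, 1017 genes were called. The count moved by over 1.5 times only with all 18 libraries (390, of which 266 were higher and 124 lower) and with adjusted p alone (3348). A similar count did not mean the same genes. With sgERH_IFNγ replicate 2 put back, 1040 genes were called, of which 691 were among the 1017. All 18 libraries kept 341 of the 1017. Without sgAAVS1_IFNγ replicate 1, 2 or 3, 782, 798 and 828 of them were kept. With all 18 libraries the interferon lists had 13 genes lower, the cell cycle lists 37 lower and the stress lists 14 higher, and the tests of a difference called 3 and 2 genes. With sgERH_IFNγ replicate 2 put back these tests called 7 and 4 genes. Without multimapping reads the difference from IL-1β called 15. Leaving out single libraries gave 721 to 944 calls, 453 to 642 higher and 268 to 304 lower, with 453 reached without sgERH_IFNγ replicate 1. It gave 18 to 20 interferon, 61 to 67 cell cycle and 23 to 28 stress calls. The difference from no cytokine ranged from 16 to 23 genes and that from IL-1β from 11 (without sgAAVS1_IL-1β replicate 1) to 62 (without sgERH_IL-1β replicate 3). JAK2, near 0, changed sign with all 18 libraries (0.26), with replicate 2 put back (0.27) and with single libraries left out (−0.16 to 0.078). The cause of these shifts was not tested.

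Of 103 named called genes, 49 kept the call under every alternative. With the replicate number as a block, 1011 genes were called under IFNγ, and the 2 difference tests called 23 and 24. Between sgERH_IFNγ and sgAAVS1_IFNγ, same-numbered libraries did not deviate together (r = 0.02 for replicate 1 and −0.0019 for replicate 3, across genes, which are not independent replicates), so no pairing was seen there, and the other groups were not checked. At the depth of these libraries, genes of a few CPM have wide errors, and the 2 sgERH_IFNγ libraries set the precision of every value here.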
